A study of Homo sapiens with 12 samples.

Results

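The genes described here are 9 genes of the plasminogen, matrix metalloproteinase (MMP) and tissue inhibitor of metalloproteinases (TIMP) system: the urokinase receptor PLAUR, the plasminogen activators PLAU and PLAT, the proteases MMP1, MMP2 and MMP14, and the inhibitors TIMP1, TIMP2 and TIMP3. Every probe set that the platform annotation gives to one of these symbols alone was taken, whatever its values, which gave 18 of the 22215 probe sets other than controls, for 9 of the 11963 genes named. The arrays measured total RNA of 5 human melanoma cell lines, all carrying the BRAF V600E mutation: SkMel-1, SkMel-5 and SkMel-28, treated with 1 dose, then SkMel-19 and Malme3M, treated with 2. All lines were grown in RPMI medium with 10% fetal bovine serum and harvested after 8 h with PLX4032, a RAF kinase inhibitor also known as vemurafenib, or with its solvent. The groups were 250 nM PLX4032 in all 5 lines, 1000 nM PLX4032 in SkMel-19 and Malme3M, and the control, 0.1% DMSO, in all 5 lines. Each line has 1 array per dose, 12 arrays in all, so the cell line was the replicate and values are given throughout in the order in which the lines are named above. The labels give no repeat culture of a line, so the p-values measure the spread of the response between lines, and levels of a line are those of 1 culture per dose.

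Plasminogen activators cut plasminogen to the broad protease plasmin, and the receptor encoded by PLAUR, anchored in the outer membrane by a lipid, holds urokinase at the cell surface. Matrix metalloproteinases are made as inactive precursors and cut collagens and other matrix proteins, and the TIMP proteins block them. The membrane-bound enzyme MMP14 activates the MMP2 precursor at the cell surface, with TIMP2 as the bridge between them, and in melanoma this system is known for its part in invasion.

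The deposited signals are linear units on a common scale, with array medians between 102.5 and 130.4. Log2 values were taken after adding 12, and fold changes are on that scale, which understates changes of dim probe sets. A probe set was tested where its mean reached a signal of 52.4, which 13329 probe sets did. Of the 18 probe sets, 16 passed, for 8 of the 9 genes, and both PLAU probe sets did not. The 4 genes taken as a check of RAF inhibition, DUSP6, SPRY2, SPRY4 and FOSL1, known targets of ERK signalling, had log2 changes at 250 nM between -5.04 for DUSP6 and -3.29 for SPRY4, each lower in 5 of 5 lines. The label of the lines was also checked: all 7 melanocytic markers measured passed the filter, with summed signals from 41528 to 65657 at 250 nM and from 31538 to 61474 in DMSO, and 1 of them, MLANA, rose (log2 change 0.20). Of 8 fibroblast markers, 4 passed the filter and 0 changed at 250 nM by limma (0 at an unadjusted p under 0.05, where 36.6% of all probe sets were). Their summed signals ran from 626 to 2068 at 250 nM and from 649 to 1770.0 in DMSO, with LUM, COL1A1, COL1A2 and DCN past the filter and COL3A1, PDGFRB, THY1 and FAP not. LUM averaged 612 ± 624 at 250 nM and 524.5 ± 516 in DMSO (SD, n = 5), and COL3A1 and PDGFRB lay under 52.4 on all 12 arrays. Among 5 endothelial markers KDR alone passed the filter, and it fell (log2 change -1.47, SE 0.28, limma adjusted p = 0.00609). Of the markers measured for leukocytes and for keratinocytes, 1 of 4 each passed the filter. These were LCP1, with a log2 change at 250 nM of 0.23 (limma adjusted p = 0.212), and CDH1, with one of 0.72 (adjusted p = 0.0984, under 0.05 before adjustment). Summed leukocyte signals ran from 84.9 to 2303 at 250 nM and from 70.7 to 2254 in DMSO, and keratinocyte ones from 104.5 to 4813 at 250 nM and from 33.8 to 4558 in DMSO. The part of these markers in the results was not tested. Signals in bulk RNA cannot tell fewer expressing cells from less RNA per cell.

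At 250 nM the receptor gene PLAUR, the activator gene PLAT and the inhibitor gene TIMP3 fell 2.30- to 2.79-fold by the probe set with the highest mean of each. PLAUR 214866_at did not pass (1.16-fold lower), and TIMP3 fell 1.73- to 1.75-fold by its other probe sets. MMP14 fell 1.41-fold, by 2 of its 4 probe sets and not without some of the lines. MMP2 and TIMP2 rose, 1.49- and 1.23-fold. Neither MMP1, high in SkMel-28 and dim in the other lines, nor TIMP1 passed the test. Of the 16 probe sets tested, 9 fell and 2 rose (limma with cell line as a block, Benjamini-Hochberg adjusted p under 0.05 over all 13329 probe sets), where 10.8% of all probe sets fell, 11.3% rose and 22.1% changed in either direction. The median log2 change was -0.53 over the 16 probe sets and 0.036 over all. With 1 probe set per gene, 4 of 8 genes fell and 2 rose. In a separate fit with 1 probe set for every gene, 6 of the 7 genes that it kept were called. There 2029 of all 7178 genes were called, 941 of them lower. Of the 16 probe sets, 10 were lower in all 5 lines, as 15.1% of all probe sets were, and 2 were higher in all 5 lines, as 18.4% were.

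**Figure D1:**
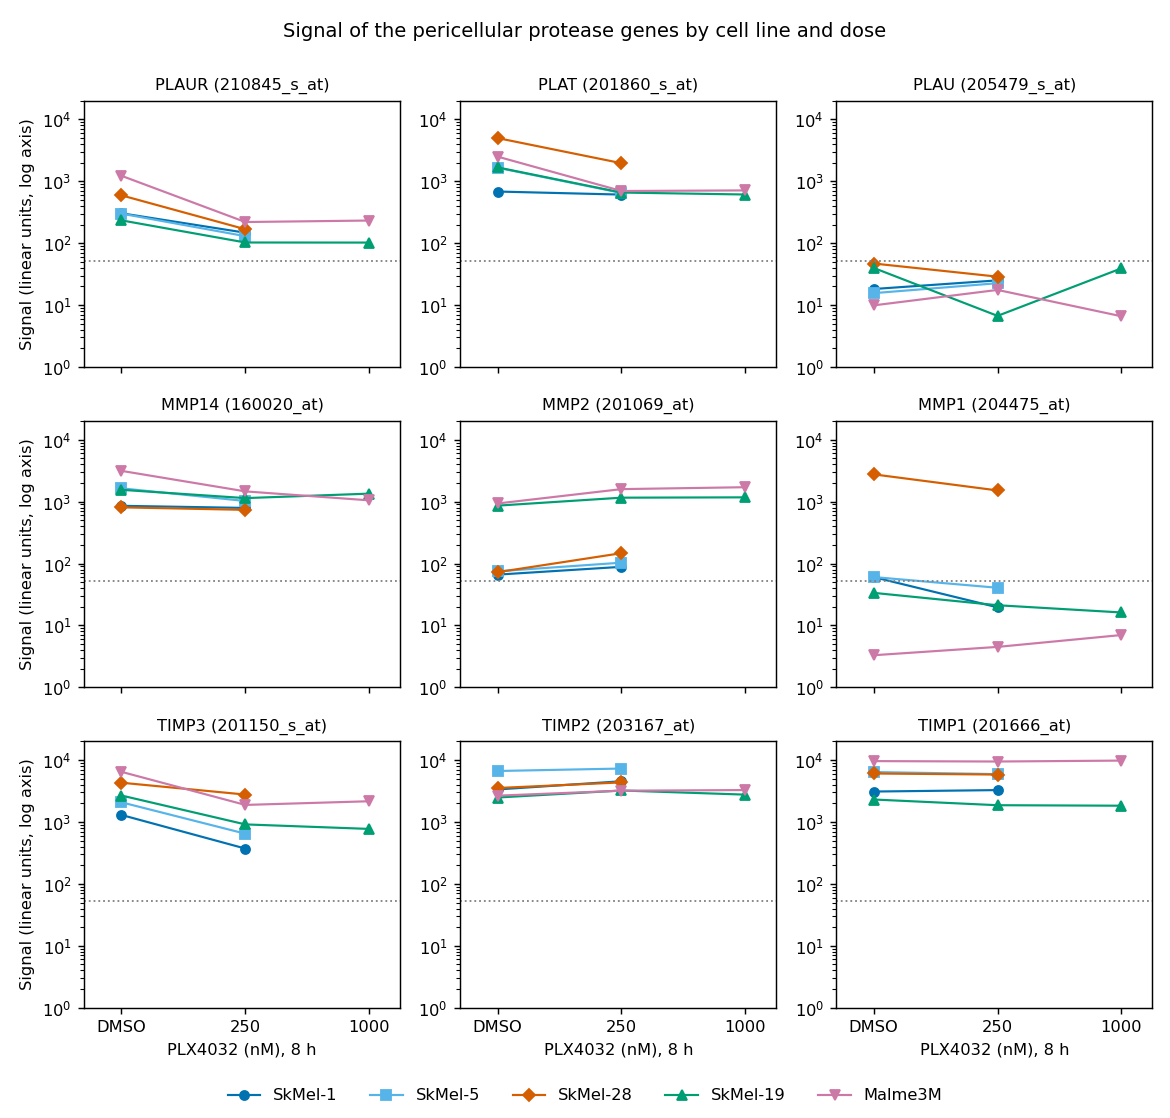
Signal of each gene's probe set with the highest mean (log axis, linear signal units) against dose for the 5 cell lines, each point 1 array, with a dotted line at the filter level of 52.4. PLAUR, PLAT and TIMP3 lie lower at 250 nM than in DMSO in every line, MMP2 and TIMP2 lie higher, PLAU lies under the dotted line on all 12 arrays, and MMP1 lies far above it in SkMel-28 alone.

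Promoter sequences are shown for 4 genes with different responses, so that the letters can be set beside the values: PLAUR and TIMP3, whose main probe sets fell most, MMP14, which fell less, and TIMP1, which did not pass. The promoter source used here held no entry for MMP1, MMP2 or TIMP2, so neither gene that rose is shown. PLAT, which fell, and PLAU, which was not tested, were not printed. Each run is 300 bases from RefSeq, build GRCh38.p14, read 5′ to 3′ on the gene's own strand, from 250 bases before the transcription start to 50 bases after it. The PLAUR run is chr19:43670120-43670419 (minus strand), the TIMP3 run chr22:32801455-32801754 (plus strand), the MMP14 run chr14:22836335-22836634 (plus strand) and the TIMP1 run chrX:47582186-47582485 (plus strand). Capitals mark matches, on either strand, to the AP-1 letters TGANTCA and the PEA3 (Ets) letters AGGAAG.
PLAUR: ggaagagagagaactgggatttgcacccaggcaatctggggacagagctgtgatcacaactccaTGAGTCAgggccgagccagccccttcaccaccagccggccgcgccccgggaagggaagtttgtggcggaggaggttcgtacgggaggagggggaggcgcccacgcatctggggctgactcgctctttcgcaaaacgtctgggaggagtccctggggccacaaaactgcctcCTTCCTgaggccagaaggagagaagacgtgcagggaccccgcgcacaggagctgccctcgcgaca
TIMP3: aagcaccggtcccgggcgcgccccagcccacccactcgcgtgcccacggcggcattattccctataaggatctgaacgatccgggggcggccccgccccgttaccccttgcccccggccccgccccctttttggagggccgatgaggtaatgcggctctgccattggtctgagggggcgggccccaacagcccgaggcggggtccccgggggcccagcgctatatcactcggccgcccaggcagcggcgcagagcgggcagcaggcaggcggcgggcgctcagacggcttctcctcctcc
MMP14: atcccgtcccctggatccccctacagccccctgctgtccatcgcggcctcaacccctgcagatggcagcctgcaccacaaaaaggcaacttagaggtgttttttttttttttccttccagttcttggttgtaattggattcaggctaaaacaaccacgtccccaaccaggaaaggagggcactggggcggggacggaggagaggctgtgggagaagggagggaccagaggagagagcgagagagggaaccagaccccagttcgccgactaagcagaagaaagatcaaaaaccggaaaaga
TIMP1: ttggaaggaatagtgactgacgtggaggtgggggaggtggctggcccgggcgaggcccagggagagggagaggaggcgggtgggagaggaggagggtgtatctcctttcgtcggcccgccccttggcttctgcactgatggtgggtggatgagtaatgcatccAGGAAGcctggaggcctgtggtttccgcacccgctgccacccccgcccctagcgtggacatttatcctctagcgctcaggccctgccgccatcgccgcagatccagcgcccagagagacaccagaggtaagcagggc
PLAUR held 1 AP-1 match, TGAGTCA, whose first base lies at -186 from the start, and 1 PEA3 match, CTTCCT, at -15. TIMP1 held 1 PEA3 match, AGGAAG, at -87. TIMP3 and MMP14 held 0 matches to either. TIMP3, with 72.7% G and C, held 5 matches to the GC box letters GGGCGG on either strand, left in lower case. MMP14 held 1 such match, TIMP1 held 2 and PLAUR held 0. Of the 35116 promoters in the RefSeq table, 7.71% held the AP-1 letters, 33.6% the PEA3 letters and 45.0% the GC box letters. The matches are letters only and were not measured as bound sites.

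PLAUR is read by 3 probe sets, and 2 of them fell. By 210845_s_at, the signal was 147.7, 129.8, 168.1, 102.7 and 219.9 at 250 nM, against 304.7, 300.7, 593.7, 234.0 and 1229 in DMSO. Every 250 nM array lay below every DMSO array, and Malme3M, the highest in DMSO, had the largest difference. The mean was 153.6 ± 44.2 at 250 nM and 532.3 ± 413.2 in DMSO (SD, n = 5 lines each), a log2 change of -1.48 (SE 0.20, limma adjusted p = 0.00139) that ran from -2.42 in Malme3M to -0.99 in SkMel-1.

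By 211924_s_at, PLAUR had signals of 89.6, 99.4, 113.4, 19.6 and 141.2 at 250 nM, against 171.6, 198.2, 369.9, 144.2 and 872.2 in DMSO. The groups again did not overlap, and the 250 nM array of SkMel-19 lay under the filter level. The log2 change was -1.64 (SE 0.25, limma adjusted p = 0.00237), and -1.44 with signals under the filter level raised to it. Signals of the 2 groups did not overlap for these 2 of the 16 probe sets, and for 1.61% of all probe sets tested.

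The remaining PLAUR probe set, 214866_at, did not pass. It had 58.5, 108.8, 191.6, 59.9 and 320.7 at 250 nM, against 83.2, 108.9, 221.4, 81.4 and 338.1 in DMSO. The values were a little lower in each line, with wide overlap between the groups, and the log2 change was -0.22 (95% interval -0.49 to 0.056, limma adjusted p = 0.226). Line by line, the log2 change was lower by 210845_s_at than by 214866_at by 1.26 ± 0.72 (SD, 5 of 5 lines), and lower by 211924_s_at by 1.43 ± 0.80 (5 of 5 lines). The exact two-sided sign-flip test gave p = 0.0625 for each, the smallest that 5 lines allow, and 0.156 adjusted over the 15 pairs of probe sets of one gene. The changes of 210845_s_at and 211924_s_at differed by 0.16 ± 0.60 (exact sign-flip p = 0.938). Across the 12 arrays with line means removed, the correlation was 0.96 between these 2 probe sets, and 0.34 and 0.40 between each of them and 214866_at. These values share arrays, lines and treatment and are a description.

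PLAU, which encodes urokinase, the ligand of that receptor, was dim. By 205479_s_at its signals were 25.1, 22.6, 28.8, 6.7 and 17.6 at 250 nM, against 18.2, 15.6, 47.0, 39.9 and 9.9 in DMSO. By 211668_s_at they were 14.0, 1.4, 38.5, 14.9 and 7.3 at 250 nM, against 8.8, 13.3, 59.9, 15.3 and 6.8 in DMSO. Lines lay on either side of their DMSO array, 1 signal passed the filter level (SkMel-28 in DMSO by 211668_s_at), and neither probe set was tested.

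PLAT encodes tissue plasminogen activator, which is secreted and works without the PLAUR receptor. Its 1 probe set, 201860_s_at, had signals of 610.2, 649.1, 1962, 658.6 and 697.3 at 250 nM, against 683.8, 1658, 5001, 1680 and 2509 in DMSO. SkMel-28 was the highest line in both groups, and the other 4 lines lay close together at 250 nM. The mean was 915.5 ± 586.0 at 250 nM and 2306 ± 1639 in DMSO (SD, n = 5), a log2 change of -1.20 (SE 0.19, limma adjusted p = 0.00307). Changes ran from -1.83 to -1.33 in 4 lines and stood at -0.16 in SkMel-1, which had the lowest DMSO signal. Without SkMel-1 the log2 change was -1.46.

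Of the proteases, MMP14 fell and MMP2 rose. MMP14, the membrane-bound enzyme, is read by 4 probe sets. By 160020_at it had signals of 792.0, 1024, 737.3, 1141 and 1465 at 250 nM, against 856.4, 1642, 809.0, 1554 and 3144 in DMSO. Malme3M and SkMel-5 had the larger differences, SkMel-1 and SkMel-28 had small ones, and the groups overlapped. The log2 change was -0.49 (SE 0.14, limma adjusted p = 0.0312), and by 202828_s_at it was -0.46 (SE 0.14, limma adjusted p = 0.0404), both lower in 5 of 5 lines. The other MMP14 probe sets did not pass: 202827_s_at had a log2 change of -0.41 (adjusted p = 0.0816) and 217279_x_at one of -0.23 (adjusted p = 0.363), each lower in 3 of 5 lines, with SkMel-1 and SkMel-28 above 0. The suffix of 217279_x_at marks probes that may also bind other transcripts. Both MMP14 calls were lost without SkMel-5, without SkMel-19 or without Malme3M, where the log2 change by 160020_at was -0.45, -0.50 and -0.34 (limma adjusted p = 0.0816, 0.0757 and 0.0799), and they were also lost with no signal filter (0.0584 by 160020_at) and with no trend in the prior variance (0.0614). Changes of the 4 probe sets correlated at 0.89 to 0.99 across the 12 arrays with line means removed. For pairs of them the exact sign-flip test gave p = 0.0625 or above (adjusted 0.156 or above). This test cannot go lower with 5 lines, so it could not tell any pair apart. The log2 change by 202827_s_at minus that by 217279_x_at was -0.18 ± 0.13 (SD), lower in 5 of 5 lines. In every other MMP14 pair the lines went both ways.

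MMP2, gelatinase A, is read by 201069_at. Its signals were 88.5, 103.3, 147.1, 1159 and 1593 at 250 nM, against 66.2, 74.9, 72.5, 861.7 and 933.8 in DMSO. SkMel-19 and Malme3M were about an order of magnitude above the other lines in both groups, and each line was higher at 250 nM. The log2 change was 0.57 (SE 0.12, limma adjusted p = 0.0086), from 0.36 in SkMel-1 to 0.91 in SkMel-28. The mean was 618.3 ± 709.1 at 250 nM and 401.8 ± 453.4 in DMSO, an SD set mostly by the lines.

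MMP1, interstitial collagenase, did not pass. By 204475_at it had 19.6, 40.6, 1517, 21.2 and 4.5 at 250 nM, against 60.4, 60.5, 2761, 33.6 and 3.3 in DMSO. SkMel-28 carried nearly all of the signal, and 4 of 5 arrays at 250 nM and 2 of 5 in DMSO lay under the filter level, so that MMP1 passed the filter through that line. The log2 change was -0.57 (SE 0.20, 95% interval -1.01 to -0.14, limma adjusted p = 0.0624), with 4 lines lower and Malme3M, at its floor, higher. In SkMel-28 alone the change was -0.86. With signals under the filter level raised to it the log2 change was -0.24 (adjusted p = 0.253). The adjusted p was 0.0453 after quantile normalization, 0.0221 without Malme3M and 0.165 without SkMel-1.

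The 3 inhibitor genes went 3 ways: TIMP3 fell, TIMP2 rose and TIMP1 did not pass. TIMP3, the TIMP that binds to the extracellular matrix, fell by all 4 of its probe sets. By 201150_s_at its signals were 371.8, 646.6, 2771, 913.7 and 1886 at 250 nM, against 1299, 2080.1, 4310.2, 2677 and 6462 in DMSO. Every line was lower, SkMel-28 least so, and the groups overlapped because the lines differ in level. The mean was 1318 ± 993.0 at 250 nM and 3366 ± 2054 in DMSO (SD, n = 5), a log2 change of -1.48 (SE 0.15, limma adjusted p = 0.000435). It was -0.63 in SkMel-28 and between -1.77 and -1.54 in the other 4 lines.

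The other TIMP3 probe sets had log2 changes of -0.80 by 201149_s_at (SE 0.12, limma adjusted p = 0.0025), -0.80 by 201147_s_at (SE 0.14, adjusted p = 0.00465) and -0.79 by 201148_s_at (SE 0.13, adjusted p = 0.00315), each lower in 5 of 5 lines. SkMel-28 had the smallest change by each of them too, from -0.29 to -0.10. The log2 change by 201150_s_at was lower than by each of the others in 5 of 5 lines, by 0.67 ± 0.29, 0.67 ± 0.20 and 0.69 ± 0.35 (SD). Each of these differences gave an exact sign-flip p of 0.0625 and an adjusted p of 0.156, while the other 3 probe sets differed among themselves by 0.014 or less on average. The array's 3′ to 5′ control ratios, a measure of RNA quality, lay between 0.868 and 1.00 for GAPDH and between 1.01 and 1.13 for ACTB, and differed between 250 nM and DMSO by -0.0082 ± 0.067 and -0.022 ± 0.075 on the log2 scale (SD, 5 lines). Correlations among the 4 TIMP3 probe sets were 0.94 to 0.99 across the 12 arrays with line means removed.

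TIMP2, which both inhibits MMP2 and takes part in its activation, had signals of 4550.0, 7299, 4358, 3226 and 3203 at 250 nM by 203167_at, against 3353, 6662, 3538, 2484 and 2662 in DMSO. Each line was higher at 250 nM, SkMel-5 was the highest in both groups, and the groups overlapped. The mean was 4527 ± 1670.3 at 250 nM and 3740 ± 1693 in DMSO, a log2 change of 0.30 (SE 0.060, limma adjusted p = 0.00764) that ran from 0.13 to 0.44 across lines. TIMP1, a soluble inhibitor with broad activity, had signals of 3274, 5928, 5838, 1866 and 9481 at 250 nM by 201666_at, against 3102, 6407, 6071, 2307 and 9627 in DMSO. It was lower in SkMel-19, by a log2 change of -0.30, lay between -0.11 and 0.077 in the other 4 lines, and its mean log2 change was -0.084 (95% interval -0.22 to 0.055, limma adjusted p = 0.355).

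**Figure D2:**
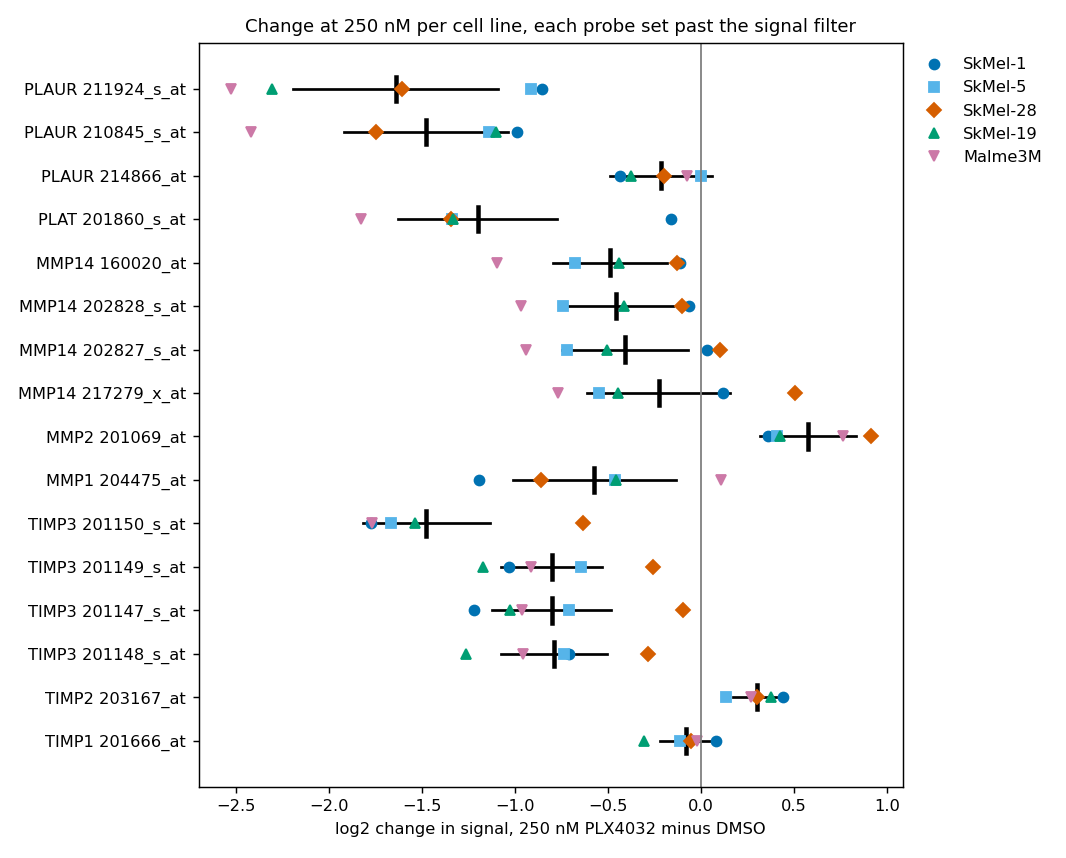
Log2 change in signal, 250 nM PLX4032 minus DMSO, for the 16 probe sets past the filter, with 1 point per cell line, a thick tick at the mean over 5 lines and a bar for limma's 95% interval. The PLAUR probe sets 211924_s_at and 210845_s_at lie far left of 214866_at, TIMP3 201150_s_at lies left of the other TIMP3 probe sets, and SkMel-28 is the rightmost point in all 4 TIMP3 rows.

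In SkMel-19 and Malme3M, the lines given both doses, the fall of PLAUR, PLAT and TIMP3 was there at 1000 nM as at 250 nM. The comparisons of each dose with DMSO share the DMSO arrays and rest on 2 lines with 2 residual degrees of freedom. At 1000 nM against DMSO 7 of the 16 probe sets fell and 1 rose, where 4.43% of all probe sets fell, 4.0% rose and 8.43% changed in either direction. At 250 nM against DMSO in the same lines 7 fell and 1 rose, where 4.33% of all fell, 4.16% rose and 8.49% changed in either direction. The median log2 change over the 16 probe sets was -0.83 at 1000 nM and -0.75 at 250 nM, and 0.041 and 0.032 over all probe sets. In a fit of all 12 arrays less those of SkMel-19 or of Malme3M, which leaves 1 array at 1000 nM that is assumed to vary like the others, 0 of the 16 passed, and of all 13329 probe sets 200 and 53 did. The log2 changes there were -1.47 and -1.29 for PLAT and -1.42 and -1.71 for TIMP3 201150_s_at. These rest partly on the mean 250 nM change of all lines in that fit, so they are not the kept line's own changes. Its own changes at 1000 nM were -1.80 in Malme3M and -1.44 in SkMel-19 for PLAT. For TIMP3 201150_s_at they were -1.57 and -1.78.

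By gene, PLAUR 210845_s_at had signals of 102.4 in SkMel-19 and 232.5 in Malme3M at 1000 nM, close to those at 250 nM. Its log2 change was -1.72 at 1000 nM (SE 0.33, limma adjusted p = 0.0299) and -1.76 at 250 nM (SE 0.33, adjusted p = 0.0291). By 211924_s_at, with 35.8 and 135.8 at 1000 nM, the log2 changes were -2.14 (SE 0.25, adjusted p = 0.00815) and -2.42 (SE 0.25, adjusted p = 0.00616), and by 214866_at, with 77.9 and 394.1, they were 0.080 (adjusted p = 0.788) and -0.23 (adjusted p = 0.425). PLAT had 612.3 in SkMel-19 and 713.2 in Malme3M at 1000 nM. Its log2 change was -1.62 at 1000 nM (SE 0.15, adjusted p = 0.00432) and -1.58 at 250 nM (SE 0.15, adjusted p = 0.00492), both from limma.

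TIMP3 201150_s_at had signals of 772.5 in SkMel-19 and 2163 in Malme3M at 1000 nM, and log2 changes of -1.68 (SE 0.12, limma adjusted p = 0.00273) at 1000 nM and -1.65 (SE 0.12, adjusted p = 0.00291) at 250 nM. The other TIMP3 probe sets fell by 0.83 to 1.13 at 1000 nM on the log2 scale, and so all 4 passed at both doses. MMP2, with 1173 and 1711 at 1000 nM, rose by 0.65 (SE 0.13, limma adjusted p = 0.0368) at 1000 nM and by 0.59 (SE 0.13, adjusted p = 0.0475) at 250 nM on the log2 scale. The calls of MMP2 and of PLAUR 210845_s_at at both doses were lost with no signal filter, with low signals raised to the filter level and with no trend in the prior variance, where the adjusted p at 1000 nM was 0.0682 to 0.0833 for MMP2 and 0.0726 to 0.0781 for PLAUR 210845_s_at. The call of PLAUR 211924_s_at was lost with low signals raised (0.0654 at 1000 nM).

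The other genes did not pass in these 2 lines. TIMP2 had 2766 in SkMel-19 and 3278 in Malme3M at 1000 nM, a log2 change of 0.23 (limma adjusted p = 0.159), against 0.32 at 250 nM (adjusted p = 0.079). TIMP1, with 1832 and 9810, had a log2 change of -0.15 (adjusted p = 0.352), and MMP1, with 16.2 and 7.0, lay at its floor in both lines. MMP14 160020_at had 1348 in SkMel-19 and 1050 in Malme3M at 1000 nM. Its log2 change was -0.89 at 1000 nM (SE 0.29, adjusted p = 0.105) and -0.77 at 250 nM (SE 0.29, adjusted p = 0.141). The 2 lines stood apart: in Malme3M the MMP14 log2 change was -1.57 at 1000 nM and -1.10 at 250 nM, and in SkMel-19 it was -0.20 and -0.44, a difference between lines that was not tested.

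Between the doses, 1000 nM against 250 nM, 0 of the 16 probe sets passed, nor did any other (0.0% of all probe sets by limma). At an unadjusted p under 0.05 there were 0 of the 16 and 228 of the 13329. The log2 differences of the 16 ran from -0.12 to 0.30. The 95% interval was -0.75 to 0.82 for PLAUR 210845_s_at, -0.39 to 0.32 for PLAT, -0.31 to 0.27 for TIMP3 201150_s_at and -0.26 to 0.38 for MMP2, so that differences of these sizes could not be detected with 2 lines.

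**Figure D3:**
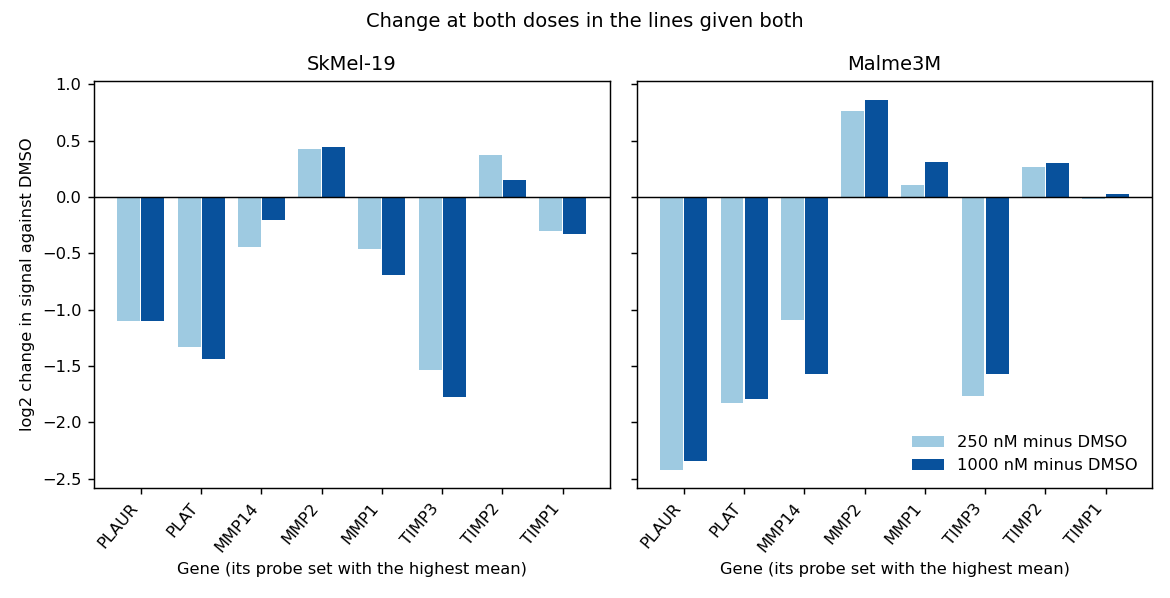
Log2 change in signal against DMSO at 250 nM (light bars) and 1000 nM (dark bars) in SkMel-19 (left) and Malme3M (right), for the probe set with the highest mean of each gene, 1 array per bar. Bars of both doses are nearly equal for PLAUR, PLAT and MMP2. The TIMP3 bars stand at -1.54 (250 nM) and -1.78 (1000 nM) in SkMel-19, and at -1.77 and -1.57 in Malme3M. The MMP14 bars reach -1.57 in Malme3M and -0.44 in SkMel-19.

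MMP1 was in the tested set through SkMel-28 alone. For the other 15 probe sets the lines differed in level, 15 of 15 by limma's F test on the 10 DMSO and 250 nM arrays with dose in the fit (adjusted p between 1.85e-07 and 0.00564), as did 87.5% of all probe sets. The error in this test, and in the steps between lines, is the spread left after line and dose. No line has a repeat culture at a dose, so these p-values are about these cultures. The order of lines, by the mean log2 level over both arrays of a line, was not the same from gene to gene. MMP1 was highest in SkMel-28 and averaged under the filter level over the other 4 lines (mean log2 level 5.07, against 6.01 for the filter), so its order is a description, with no test. MMP2 ran Malme3M, SkMel-19, SkMel-28, SkMel-5, SkMel-1, and one step in that order passed, the 3.13 (SE 0.18) between SkMel-19 and SkMel-28.

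PLAT was highest in SkMel-28, 1.23 above Malme3M (SE 0.30, limma adjusted p = 0.0072), and Malme3M, SkMel-19, SkMel-5 and SkMel-1 followed with no step between neighbours that passed. Without SkMel-28 the test of PLAT level among lines no longer passed (adjusted p = 0.0816). PLAUR 210845_s_at ran Malme3M, SkMel-28, SkMel-1, SkMel-5, SkMel-19, with no step that passed, nor was there one by 211924_s_at. By 214866_at the order was Malme3M, SkMel-28, SkMel-5, SkMel-19, SkMel-1, and the first 3 steps passed (adjusted p = 0.0181, 0.00472 and 0.0365). MMP14 160020_at was highest in Malme3M, by 0.68 above SkMel-19 (adjusted p = 0.0263), and lowest in SkMel-28, where the step below SkMel-1 did not pass. By the other 3 MMP14 probe sets Malme3M was also the highest line and SkMel-28 the lowest, but the top step did not pass (adjusted p = 0.0513 to 0.559), and the lowest step passed by 202827_s_at (0.0146).

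Among the inhibitors, TIMP1 ran Malme3M, SkMel-5, SkMel-28, SkMel-1, SkMel-19, and all steps passed except SkMel-5 against SkMel-28 (0.050, adjusted p = 0.688). TIMP2 was highest in SkMel-5, by 0.83 above SkMel-28 (SE 0.094), and the steps between SkMel-28 and SkMel-1 and between Malme3M and SkMel-19 below them did not pass. TIMP3 201150_s_at was highest in Malme3M and SkMel-28, which differed by 0.015 (adjusted p = 0.964), and lowest in SkMel-1. By the other TIMP3 probe sets SkMel-28 was the highest line, a step that passed by 201149_s_at and 201147_s_at, and SkMel-1 was again the lowest.

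The other genes of the system were counted in lists by family, with 1 probe set per gene. At 250 nM their counts stand beside 10.8% of all probe sets that fell and 11.3% that rose. That base holds several probe sets for some genes. In the fit with 1 probe set per gene, 2029 of 7178 genes were called at 250 nM, 941 of them lower. Among 12 other plasminogen genes on the array, 8 passed the filter, 0 fell and 2 rose, with a median log2 change of 0.12. ANXA2, a surface protein that binds plasminogen and PLAT, averaged 9741 ± 1365 at 250 nM and 8269 ± 1683 in DMSO, a log2 change of 0.25 (SE 0.053, limma adjusted p = 0.0109). A2M, a broad inhibitor of proteases in the extracellular fluid, averaged 1661 ± 1268 at 250 nM and 1189 ± 857.0 in DMSO, a log2 change of 0.40 (SE 0.10, adjusted p = 0.0222). Both were higher in 5 of 5 lines.

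Of 18 other matrix metalloproteinases on the array, 4 passed the filter and 0 changed by limma (0 at an unadjusted p under 0.05, where 36.6% of all probe sets were). The lowest p-values were those of MMP8, neutrophil collagenase, with a log2 change of 0.29 (limma adjusted p = 0.155), and MMP9, gelatinase B, with 0.27 (adjusted p = 0.225). Of 10 other metalloproteinase inhibitors and cofactors, 8 passed the filter and 1 fell: ITGB3, the integrin beta-3 subunit, averaged 938.7 ± 744.3 at 250 nM and 1376 ± 1091 in DMSO, a log2 change of -0.49 (SE 0.12, adjusted p = 0.0167).

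Of 18 ADAM and ADAMTS proteases on the array, 7 passed, 1 fell and 1 rose. ADAMTS1, a secreted protease of proteoglycans, averaged 81.9 ± 64.0 at 250 nM and 141.0 ± 64.4 in DMSO, a log2 change of -0.81 (SE 0.23, limma adjusted p = 0.0359), with 4 of 12 arrays under the filter level. ADAM10, which sheds proteins from the cell surface, had a log2 change of 0.31 (SE 0.093, adjusted p = 0.0418), higher in 4 of 5 lines. Of 24 other pericellular proteases and their inhibitors, 13 passed the filter and 0 changed at 250 nM by limma. At an unadjusted p under 0.05 there were 3 of these 13, where 36.6% of all probe sets were. The nearest were cathepsin K, CTSK (0.51, limma adjusted p = 0.0528), and cathepsin D, CTSD (0.20, adjusted p = 0.0796). At 1000 nM 1 of these 13 fell, where 4.43% of all probe sets did. FURIN, the protease that activates the MMP14 precursor, had a log2 change of -0.86 (SE 0.17, limma adjusted p = 0.035). Its change was -0.62 at 250 nM in the same 2 lines (SE 0.17, adjusted p = 0.0772) and -0.32 at 250 nM in 5 lines (adjusted p = 0.128). In the other 4 lists 0 genes changed at 1000 nM by limma. At an unadjusted p under 0.05 there were 3 of 8 plasminogen genes and 1 of 4 metalloproteinases. There were also 0 of 8 inhibitors and cofactors and 2 of 7 ADAM and ADAMTS genes. Over all probe sets 28.9% were under 0.05 at 1000 nM.

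Genes whose signals ran most like each of these were taken by Pearson correlation over the 12 arrays, after subtracting the line means, among 7830 genes. The 12 arrays share 5 lines and the treatment, so the values describe these arrays. Nearest to PLAUR were TFAP2C, SPAG1 and INPP5F (r = 0.99 each). Nearest to PLAT were LTBR, ALDH1A3 and SNX24 (0.99 each), to TIMP3 MRM3, MICALL2 and PAXIP1 (0.98 to 0.99) and to MMP14 ATIC, YBX3 and AFDN (0.97 to 0.98). Among the rising genes, UBE2H, ZFAND5 and PAX8 were nearest to MMP2 (0.98 to 0.99) and CBY1, KIF18A and MIPEP to TIMP2 (0.98 each). Not all of these nearest genes passed at 250 nM. ATIC, YBX3 and AFDN had log2 changes of -0.21, -0.34 and -0.12 (limma adjusted p = 0.0780, 0.0698 and 0.596). MRM3 had one of -0.21 (limma adjusted p = 0.102). The other nearest genes named passed. Among the genes of the system themselves PLAUR ran with PLAT (r = 0.95), TIMP3 (0.88) and MMP14 (0.84), and against MMP2 (-0.98) and TIMP2 (-0.85). Its correlation was 0.52 with MMP1 and 0.40 with TIMP1, which did not pass at 250 nM. Dose means were not subtracted, so the signs follow the directions of change.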

How the data were processed

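Each array is 1 sample of total RNA from a melanoma line at 1 dose, labelled with biotin. The deposited table holds 1 linear intensity (signal) per probe set and array, made with GCOS, per the submitters' processing notes. Its version and the summary of probes are not given in the sources used here, and no detection calls were used. The 62 control probe sets of the 22277 were left out. The platform annotation names 1 gene for 19064 probe sets, several for 1043 and none for 2108, and 19052 of the single names had their Entrez ID in the gene table.

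Values were taken as log2(signal + 12), where 12 is the 20th percentile. Probe sets whose mean log2 value over the 12 arrays reached the 40th percentile were tested with limma 3.58.1 in R 4.3.3. The fits used lmFit and eBayes with trend, two-sided, with Benjamini-Hochberg over 13329 probe sets and threshold 0.05. They were run on simulated data with independent normal noise for each probe set. That run does not cover probe sets that vary together, and its outcome is not used here. The 250 nM fit used 10 arrays and had 4 residual degrees of freedom, and the fit of both doses used 6 arrays. Cell line was the block, taken from the labels. With dose means subtracted, the correlation between the 250 nM and DMSO array of a line was 0.885 or above. Between lines it was -0.138 or below. Subtracting the dose means pushes these values between lines below 0, so their sign carries no weight. Pairs of probe sets were compared by an exact sign-flip test over 5 lines. Array number limits the precision.

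Levels of different probe sets were not compared. The members, the gene lists and the tests were chosen with earlier results of these data known, and gene lists name up to 4 changed genes, or the 2 with the lowest p. Genes of the lists that are not on the array by a single symbol were not analysed here. FURIN at 1000 nM was named after its value was seen. The alternatives were pseudocounts of 1 and 50, no signal filter, median centring, quantile normalization, signals raised to the filter level, 1 probe set per gene, no trend, no line block, a fit of all 12 arrays, and leaving out each line.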

Additional observations from a re-analysis of the deposited data

Results flagged for a closer look

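Of 24 groups of 5 lines examined, the 8 genes' probe sets with the highest mean in each dose group and in the change, 3 held a line far from the other 4, and chance alone flags about 1 in 20 such groups. The groups of a gene share lines and arrays, so the flags are not independent. Whether 3 is more than chance gives was not tested. All 3 were SkMel-28. Its MMP1 log2 signal at 250 nM was 10.58, where the other lines had 4.04 to 5.72, and MMP1 was among the 8 genes through SkMel-28 alone, so that this one follows from the signal filter. Its PLAT log2 signal at 250 nM was 10.95, where the other lines had 9.28 to 9.47. Its change of TIMP3 by 201150_s_at was -0.63 on the log2 scale, where the other lines had -1.77 to -1.54.

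For 1 of the 8 genes, MMP1, SkMel-19 and Malme3M lay on opposite sides of their DMSO arrays at both doses. The mean difference between the 2 lines was 0.79 on the log2 scale, with Malme3M above, and all 6 MMP1 signals of these lines lay under the filter level. This difference was not tested.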

How the results depend on the processing

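At 250 nM the calls of PLAUR (210845_s_at and 211924_s_at), PLAT, MMP2, TIMP2 and all 4 TIMP3 probe sets held in every alternative run that kept the cell line as a block. Those of MMP14, given in the report with the lines that decide them, did not, and MMP14 202827_s_at passed without SkMel-28 (log2 change -0.53, limma adjusted p = 0.0472). Without the replicate block all calls of these genes were lost, in each comparison with DMSO (0 of 16 probe sets), and over all probe sets 10 were called at 250 nM, 0 at 1000 nM and 0 at 250 nM in the 2 lines, against 2943, 1124 and 1131 with it. With 1 line left out the count over all probe sets was 1805 (without Malme3M) to 2598 at 250 nM, with 1874 without SkMel-19, and, in the 12-array fit, 53 to 200 at 1000 nM and 0 to 1 between doses, and 0 of the 16 were called at 1000 nM. At 1000 nM the count was 557 with no signal filter, 521 with low signals raised and 494 with no trend, and at 250 nM in the 2 lines 562, 491 and 478. Low signals raised left 5 of the 16 called, against 8, at 1000 nM and at 250 nM in the 2 lines: PLAUR 210845_s_at, PLAUR 211924_s_at and MMP2 were lost. No signal filter and no trend each lost PLAUR 210845_s_at and MMP2 at both, and MMP2 at 250 nM in the 2 lines was also lost after median centring and quantile normalization. With 1 probe set per gene, so with fewer tested, 6 genes were called at 250 nM, 4 at 1000 nM, 4 at 250 nM in the 2 lines and 7 among lines, where 6476 of all were called, against 11661. The other causes were not tested.

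Values that turned sign were of results that passed no test. At 1000 nM against DMSO TIMP1 was 0.024 without SkMel-19, in the 12-array fit. Between doses MMP1 was 0.086 with a pseudocount of 1 and 0.18 in the 12-array fit, where PLAUR was -0.10 by 210845_s_at and -0.11 by 211924_s_at and TIMP1 was -0.028. PLAUR 211924_s_at was -0.026 with low signals raised, and TIMP1 -0.0025 after quantile normalization. The ranges with 1 line left out are from the 12-array fit. There the level of the line kept at 1000 nM rests partly on the mean 250 nM change of all lines fitted. They are therefore not that line's own differences between doses. Those were -0.24 in SkMel-19 and 0.20 in Malme3M for MMP1, and -0.0038 and 0.076 for PLAUR 210845_s_at. For MMP14 160020_at they were 0.24 and -0.48. The fitted difference between doses ran from -0.092 to 0.56 for MMP1. For PLAUR it ran from -0.35 to 0.068 by 210845_s_at and -0.58 to 0.15 by 211924_s_at. It was -0.13 to 0.052 for TIMP1, -0.035 to 0.18 for MMP2 and -0.19 to 0.024 for TIMP2. For TIMP3 it was -0.31 to 0.042 by 201150_s_at and -0.058 to 0.096 by 201149_s_at. For MMP14 it ran from -0.77 to 0.19 by 160020_at, -0.83 to 0.22 by 202827_s_at, -0.65 to 0.25 by 202828_s_at and -0.60 to 0.025 by 217279_x_at. Of the pairs of probe sets, TIMP3 201149_s_at minus 201147_s_at was 0.0020 with a pseudocount of 1, and PLAUR 210845_s_at minus 211924_s_at was -0.043 with low signals raised. With 1 array per line and dose and no detection calls, signals near 52.4 bear little weight.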
